A study of Schmidtea mediterranea with 64 samples.

Results

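The late response of planarian stem cells to the loss of *set1* was measured as the difference between X1 cells of *set1*(RNAi) animals and X1 cells of *unc22*(RNAi) animals after 9 days of RNAi. These were 8 of the 64 libraries of the study, 4 for each RNAi, and they came from a table that listed 18845 transcript IDs. All 13503 transcripts (71.7%) with a mean of at least 1 RPKM, the reads of a transcript scaled to its length in kilobases and to the mega reads of the library, over the 16 libraries of that table were tested. The last transcript left out had a mean of 0.99985 RPKM and the first one kept had 1.0004 RPKM. There were 420 transcripts with a mean between 0.9 and 1 RPKM and 349 between 1 and 1.1 RPKM.

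The animals were *Schmidtea mediterranea*, a freshwater flatworm. They ate bacteria that carried double-stranded RNA, made against *set1* or *mll1/2* for the knockdowns or against *unc22* for the control, in a paste of calf liver. Cells stained with Hoechst, a DNA dye, were sorted by flow cytometry to give the X1 fraction, and polyA RNA was made into libraries with an Illumina TruSeq kit. The same design was applied to X1 cells after 6 days, to whole worms, and to *mll1/2*(RNAi), each with its own *unc22*(RNAi) libraries. The groups compared here therefore shared the protocol and the day, and differed in the RNAi target. Whether they were fed and sorted together is not stated. The labels give neither the age of the animals nor the number pooled for a sort, and nothing says that the 4 libraries of a group came from separate animals. P-values then measure only the spread between these libraries, which may be technical.

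Set1 is the catalytic subunit of a COMPASS-type complex, which methylates lysine 4 of histone H3. Its trimethylated form marks the promoters of active genes in animals and yeast. X1 cells are the irradiation-sensitive fraction of the planarian cell sort and hold the cycling neoblasts, the stem cells from which planarians renew and regenerate all their tissues. *unc22* is a muscle gene of *Caenorhabditis elegans* that is commonly used as a control RNAi in planarians. The files do not pair the transcript IDs with gene names. The level of *set1* itself, the stem cell markers that would check the X1 label, and markers of other cell types were for that reason not checked, and transcripts are described here by abundance, length, X1 enrichment and behaviour in the other comparisons.

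The 8 libraries held 14.22 to 18.28 M (mega) reads. They are called library a to library d within a group. On the first principal component, with 40.2% of the variance over the 16 X1 libraries, *set1*(RNAi) day 9 libraries lay between -44.8 and -39.6 and *unc22*(RNAi) day 9 libraries between 19.4 and 34.8. On the second component (15.7%), *unc22*(RNAi) libraries a and d stood at the ends, at 34.5 and -34.3. The counts of day 9 calls, the classes of abundance, length and ratio, and the number of transcripts detected are therefore also given without them. The median SD of a transcript over the 4 libraries was 0.166 on the log2 scale in *set1*(RNAi) and 0.236 in *unc22*(RNAi). Pearson's r across transcripts, as a description, was 0.98 to 0.988 among the *set1*(RNAi) libraries, 0.96 to 0.984 among the *unc22*(RNAi) libraries and 0.941 to 0.959 between the groups.

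At day 9, limma called 5421 transcripts, 40.1% of those tested, at a Benjamini-Hochberg adjusted p below 0.05. Of these, 2429 (18%) were higher and 2992 (22.2%) were lower after *set1*(RNAi). After median scaling, which moved the median of all transcripts by 0.08 on the log2 scale, the split was 2934 higher and 2327 lower. Which direction held more calls thus depended on the scaling. Without *unc22*(RNAi) libraries a and d, 1921 were called higher and 2801 lower. In 2116 transcripts (15.7%) every *set1*(RNAi) library lay above every *unc22*(RNAi) library, and in 2567 (19%) every one lay below. RNA of bulk cells cannot tell fewer cells of a type from less RNA per cell.

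Most of the changes were small. The median rise among transcripts called higher was 0.69 on the log2(RPKM + 0.5) scale, with quartiles at 0.43 and 1.06, and the median fall was -0.64, with quartiles at -0.94 and -0.44. The median SE was 0.16 and 0.12. A change of at least 1.5-fold was called up for 1429 transcripts (10.6%) and down for 1674 (12.4%). At 2-fold there were 1333 calls (9.87%), of which 690 (5.11%) were higher and 643 (4.76%) were lower. At 4-fold, 67 (0.496%) were higher and 55 (0.407%) lower, and at 8-fold 5 (0.037%) were higher and 4 (0.0296%) lower. The 2-fold count was 1346 without *unc22*(RNAi) libraries a and d, with 653 higher and 693 lower. With 1 RPKM added in place of 0.5 it was 967, with 465 higher and 502 lower. Which direction held more 2-fold calls thus depended on the setting.

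The calls took up different parts of the RNA. Transcripts called higher held 32.4 to 32.9% of the listed RPKM in *set1*(RNAi) libraries and 24.6 to 25.2% in *unc22*(RNAi) libraries. Transcripts called lower held 10.7 to 11.4% and 17.3 to 17.7%. Since the transcripts were chosen on these libraries, the shares describe the size of the response and carry no test. The median abundance was 6.7 RPKM among those called higher and 16.1 RPKM among those called lower, against 8.52 RPKM over all tested.

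Named below are 4 of the transcripts called, chosen by the size of their day 9 change among those whose groups do not overlap. That choice favours a gap between the groups and a larger change at day 9 than at day 6. The transcript with the largest rise was SMED30017343, of 599 bases. Its *set1*(RNAi) day 9 libraries a to d had 18.9, 21.4, 15.5 and 17.8 RPKM, and its *unc22*(RNAi) libraries had 0.0829, 0, 0.113 and 1.24 RPKM. It was close to undetected in control X1 cells, with 14 reads over the 4 control libraries, 12 of them in library d, against 707 reads over the 4 *set1*(RNAi) libraries. The means were 18.4 ± 2.45 and 0.36 ± 0.591 RPKM (SD, n = 4), and limma gave a log2 change of 4.65 (SE 0.31, adjusted p = 7.75e-09). The change was already present at day 6, when the means were 7.38 ± 1.18 and 0.276 ± 0.267 RPKM (log2 change 3.39, limma adjusted p = 2.32e-06). Whole worms of day 9 had 0.405 ± 0.209 RPKM after *set1*(RNAi) and 0.216 ± 0.101 RPKM in the control, under the level at which a transcript was tested.

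SMED30013183, of 930 bases, was the most raised transcript among those with a mean of at least 20 RPKM. It had 148, 144, 125 and 114 RPKM in the *set1*(RNAi) libraries and 19.3, 21.1, 18.3 and 21.7 RPKM in the *unc22*(RNAi) libraries. The groups were far apart, at 133 ± 16 and 20.1 ± 1.56 RPKM (SD, n = 4; log2 change 2.69, SE 0.09, limma adjusted p = 3.19e-12). At day 6 the *set1*(RNAi) mean was 54 ± 2.35 RPKM against 25.2 ± 2 RPKM, a log2 change of 1.09. The rise was larger at day 9 than at day 6 by 1.60 on the log2 scale (SE 0.13, limma adjusted p = 2.9e-06). Whole worms showed the same direction with a log2 change of 0.84 (SE 0.07, limma adjusted p = 6.98e-08). In X1 cells after 9 days of *mll1/2*(RNAi) the change was 0.16 (limma adjusted p = 0.746).

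The largest fall was that of SMED30027305, of 456 bases. Its *set1*(RNAi) libraries had 2.1, 1.39, 1.28 and 1.69 RPKM and its *unc22*(RNAi) libraries had 21.8, 30.1, 23.2 and 27.9 RPKM. As the choice required, every *set1*(RNAi) library was below every control library, at 10 to 14 reads each against 156 to 232. The means of 1.62 ± 0.367 and 25.8 ± 3.93 RPKM (SD, n = 4) gave a log2 change of -3.64 (SE 0.21, limma adjusted p = 1.79e-09). It had been -2.40 at day 6, and the difference between the days was -1.23 (SE 0.30, limma adjusted p = 0.0228). That difference had an adjusted p of 0.0663 with voom on the recovered reads and 0.05 without *set1*(RNAi) day 9 library b. The transcript was at least 4-fold enriched in control X1 cells over control whole worms. Whole worms of day 9 showed a change of -1.23 (limma adjusted p = 0.000429), and after *mll1/2*(RNAi) its change in X1 cells was 0.02 (limma adjusted p = 0.98).

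SMED30007270, of 912 bases, was the most lowered transcript among those with a mean of at least 20 RPKM. The *set1*(RNAi) libraries had 16.6, 17.7, 16.4 and 17 RPKM and the *unc22*(RNAi) libraries had 107, 147, 119 and 141 RPKM. The *set1*(RNAi) libraries were nearly alike while the control libraries ranged more widely, with means of 16.9 ± 0.595 and 128 ± 18.7 RPKM (SD, n = 4; log2 change -2.88, SE 0.10, limma adjusted p = 3.19e-12). At day 6 the means were 45.6 ± 3.99 and 131 ± 11.4 RPKM, and the fall was larger at day 9 by a log2 difference of -1.37 (limma adjusted p = 5.46e-05). In whole worms the means were 36.4 ± 3.44 RPKM after *set1*(RNAi) and 41 ± 3.94 RPKM in the control (log2 change -0.17, limma adjusted p = 0.0613). In X1 cells after *mll1/2*(RNAi) the same transcript rose, from 154 ± 16 RPKM in that experiment's control to 231 ± 28.1 RPKM (log2 change 0.58, limma adjusted p = 0.00752). How reads shared by near-identical transcripts were assigned is not given, which leaves the values of these 4 IDs uncertain as it does for all others. Without *unc22*(RNAi) libraries a and d the day 9 changes of SMED30017343, SMED30013183, SMED30027305 and SMED30007270 were 5.08, 2.72, -3.69 and -2.93 on the log2 scale. The values in the day 6, whole worm and *mll1/2* comparisons below are of transcripts called with all 8 libraries.

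**Figure D1:**
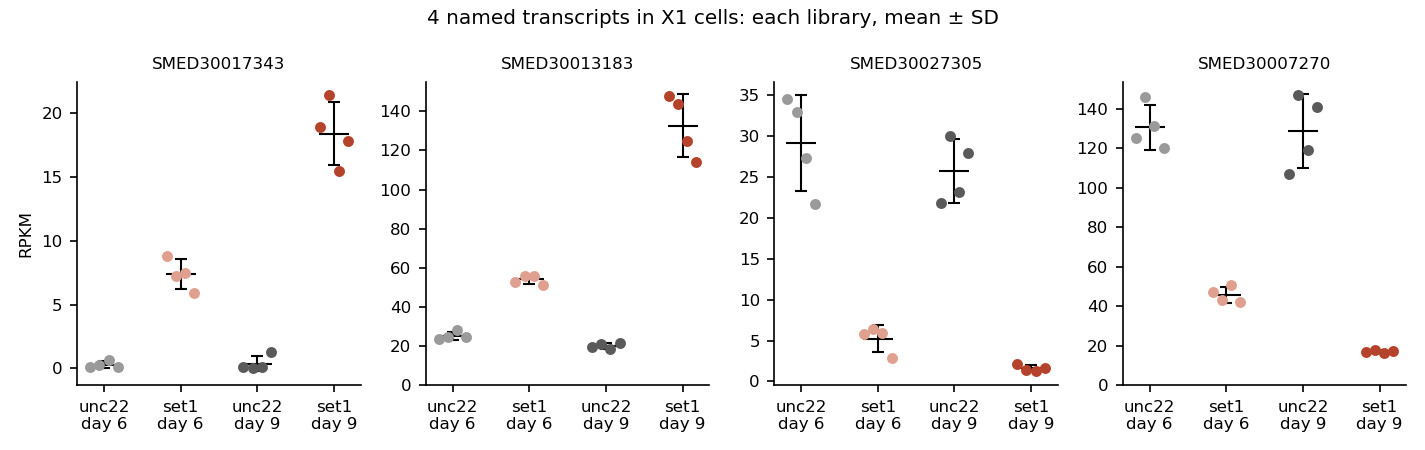
RPKM in X1 cells of the 4 named transcripts, which were chosen by the size of their day 9 change, 1 panel each, with a linear axis. Points are libraries in the order a to d, lines and bars are the mean ± SD of 4 libraries, and in each panel the *set1*(RNAi) libraries of day 9 lie beyond those of day 6 in the direction of the change, as with SMED30007270 at a mean of 16.9 RPKM on day 9 and 45.6 RPKM on day 6.

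More transcripts were detected at low thresholds in the X1 libraries of *set1*(RNAi). Libraries a to d held 13688, 13639, 14089 and 13862 listed transcripts at 1 RPKM or more, and the *unc22*(RNAi) libraries held 13630, 12922, 13205 and 12506. The lowest *set1*(RNAi) library stood just above the highest control library. The means were 13820 ± 204 and 13066 ± 473 (SD, n = 4), a difference of 754 (exact permutation test, two-sided, p = 0.0286, the smallest that 4 against 4 allows). The difference was 938 at 0.5 RPKM (exact p = 0.0286) and 414 at 2 RPKM (exact p = 0.0571), and at 5 RPKM it was -15 (exact p = 0.886). The groups did not overlap at 0.5 and 1 RPKM and overlapped at 2 and 5 RPKM. At day 6 the difference at 1 RPKM was 409 (exact p = 0.0571). Leaving out any library of day 9 gave differences of 567 to 942, the lowest without *unc22*(RNAi) library d, and it was 756 without *unc22*(RNAi) libraries a and d. Among the controls the number detected moved with the composition of the library, as given below. The part of composition in this difference was not tested.

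**Figure D2:**
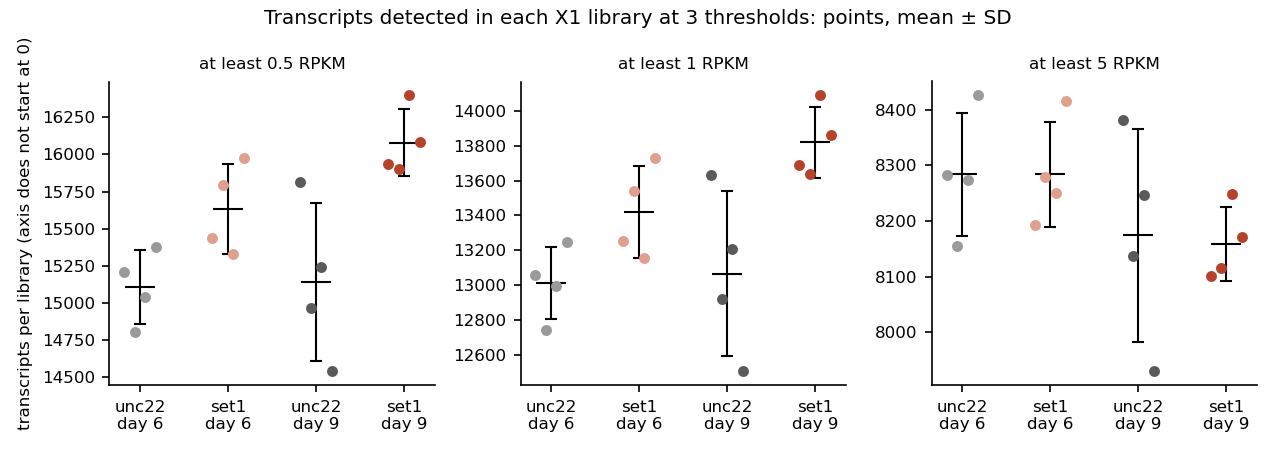
Listed transcripts at or above 0.5, 1 and 5 RPKM in each of the 16 X1 libraries, with points for libraries and lines for the mean ± SD of 4. The axes do not start at 0. At 1 RPKM the *set1*(RNAi) day 9 libraries hold 13639 to 14089 transcripts and their controls 12506 to 13630, while at 5 RPKM the groups overlap.

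A related view came from transcripts near the detection limit. In 18 transcripts (0.133% of those tested) every *unc22*(RNAi) library was under 0.5 RPKM and every *set1*(RNAi) library at 1 RPKM or more. The reverse held in 2 transcripts (0.0148%). Of the transcripts called higher, 393 had a control mean under 1 RPKM, and of those called lower, 169 had a *set1*(RNAi) mean under 1 RPKM. A transcript listed here needed enough signal to reach a mean of 1 RPKM over the table, so those low in a group passed through the others.

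The direction of the calls changed with abundance. Among the 5203 transcripts of 1 to 5 RPKM, 20.5% were called higher and 12.6% lower, and 507 rose against 219 that fell by at least 2-fold. Of the 3852 at 5 to 20 RPKM, 15.1% were higher and 26.5% lower, and of the 3065 at 20 to 100 RPKM, 14.9% were higher and 31.7% lower. The median changes of these classes were 0.12, -0.06 and -0.08, against 0 over all tested. Both directions were called at like shares, 23.3% and 24.9%, among the 1383 transcripts at 100 RPKM or more, with only 9 rises and 34 falls of at least 2-fold. The median SE was 0.23 at 1 to 5 RPKM and 0.10 at 20 RPKM and above, so a small change was more often called in abundant transcripts.

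With median scaling, the order of the directions was kept at 1 to 5 RPKM (24.2% higher, 10.3% lower) and at 20 to 100 RPKM (18.8% and 23.3%), as it was in both classes with the length trend removed, weighted libraries and voom. It turned with quantile normalisation. That method, which gives every library the same distribution of values, called 16.8% higher and 17.1% lower at 1 to 5 RPKM, and 28.3% and 24.9% at 20 to 100 RPKM. At 100 RPKM or more, median scaling gave 26.8% higher and 16.1% lower. Without *unc22*(RNAi) libraries a and d, the shares at 1 to 5 RPKM were 16.4% and 10.4%, and at 20 to 100 RPKM they were 11.2% and 30.7%.

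**Figure D3:**
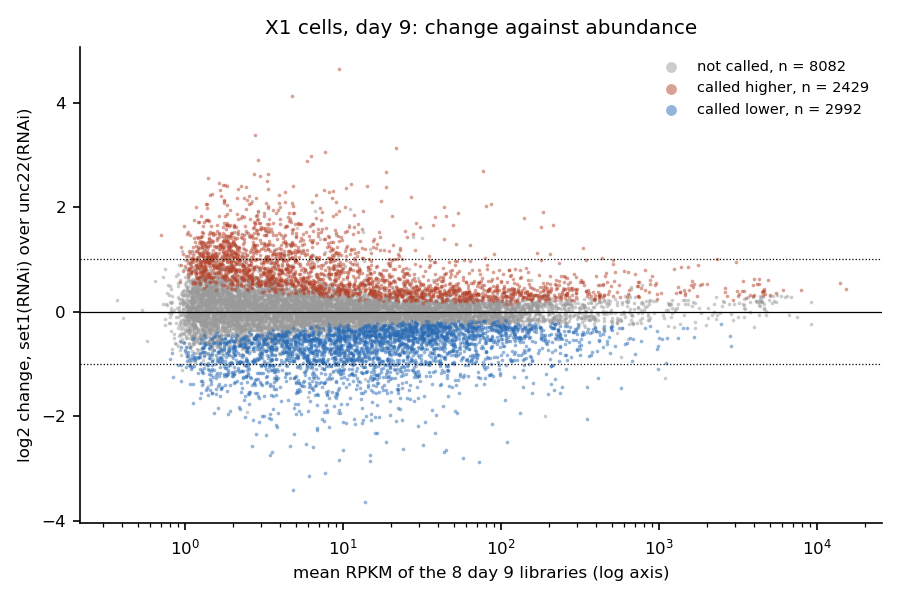
Log2 change at day 9, *set1*(RNAi) over *unc22*(RNAi), against the mean RPKM of the 8 libraries on a log axis. Each point is 1 of the 13503 transcripts tested, red for the 2429 called higher, blue for the 2992 called lower and grey for those not called, and dotted lines mark 2-fold. Of the 690 rises of at least 2-fold, 507 were in transcripts with a mean of 1 to 5 RPKM over the 16 libraries.

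Transcript length was recovered from the steps of the RPKM values. Among the 1881 transcripts under 500 bases, 23.3% were called higher and 15.7% lower, and 249 rose against 106 that fell by at least 2-fold. From 1000 to 2000 bases (n = 4804), 16.4% were higher and 27.5% lower. Transcripts of 4000 bases or more (n = 520) were called least, at 9.81% and 8.85%, and the median change of single *set1*(RNAi) libraries against the control mean spread most there, from -0.10 to 0.46. Abundance and length were linked: the short class had a median of 4.25 RPKM and the class of 1000 to 2000 bases 12.6 RPKM. Among transcripts under 500 bases, 23.6% were higher and 7.59% lower at 1 to 5 RPKM (n = 1014), 28.6% and 20.9% at 5 to 20 RPKM (n = 444), and 19.0% and 34.5% at 20 to 100 RPKM (n = 232). The excess of rises was thus seen in the lower classes of abundance and turned in the third. Without *unc22*(RNAi) libraries a and d, 18.3% of all transcripts under 500 bases were higher and 15.7% lower. Removal of the trend on length, which levels the length classes by its construction, gave 20.7% and 20.8%.

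X1 enrichment was taken from *unc22*(RNAi) day 9 libraries of the *mll1/2* experiment, which the *set1* comparison does not use. A ratio of X1 to whole worm RPKM was had for 13035 transcripts, and 77.1% fell in the same class when the day 6 controls of the *set1* experiment were used. Transcripts at least 4-fold higher in X1 cells (n = 1976) were called lower more than higher, at 32.5% and 17.6%. Of those, 148 fell and 57 rose by at least 2-fold. The class 2- to 4-fold higher in X1 cells (n = 2277) had 28.9% lower and 17.5% higher, and transcripts within 2-fold (n = 4625) had 23.7% and 16.2%. In transcripts at least 4-fold higher in whole worms (n = 2382) the order turned, with 10.4% lower and 21.6% higher, and 197 rose against 57 that fell by at least 2-fold.

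The median changes were small. They were -0.10 in the class 4-fold or more higher in X1 cells, -0.06 in the next, -0.03 within 2-fold, 0.03 at 2- to 4-fold higher in whole worms and 0.16 at 4-fold or more. Their order rested on *unc22*(RNAi) library d. Without it, and less the median of all transcripts, they were -0.02, -0.01, -0.04, -0.02 and 0.11 in the same classes, so that the first 4 no longer followed the ratio. Without library a the X1-high value was -0.19 and the whole-worm-high value 0.23. Set singly against the mean of the day 9 controls, the *set1*(RNAi) libraries gave an X1-high median from -0.20 to -0.03 and a whole-worm-high median from 0.11 to 0.27. Abundance was not the same in these classes, with medians of 53.3 RPKM in the X1-high class and 2.75 RPKM in the whole-worm-high class. The shares differed with abundance. At 1 to 5 RPKM, which held 1702 of the 2382 whole-worm-high transcripts, 19.1% of these were higher and 8.11% lower, and 23.1% of the 104 X1-high transcripts were higher and 28.8% lower. Rises were thus not more frequent in the whole-worm-high class there, and falls were less frequent. Within 20 to 100 RPKM there were 40% lower and 10.3% higher among 740 X1-high transcripts, and 14.3% lower and 38.1% higher among 126 whole-worm-high transcripts. At 100 RPKM or more, 24.6% of the 683 X1-high transcripts were lower and 22.7% higher.

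The order between directions in the 2 outer classes held with median scaling, quantile normalisation, the length trend removed, weighted libraries, voom and without *unc22*(RNAi) libraries a and d. Calls in the X1-high class were 24.1% lower and 20.6% higher with median scaling, 31.7% and 27.3% with quantile normalisation, and 32.9% and 14% without *unc22*(RNAi) libraries a and d. Calls in the whole-worm-high class were 8.19% lower and 25.9% higher, 12.8% and 20.6%, and 8.86% and 17.0% under the same alternatives. Without *unc22*(RNAi) library d, on which the order of the medians rested, the shares were 27.5% lower and 20.1% higher in the X1-high class, and 11.7% and 19.8% in the whole-worm-high class. The composition of single libraries moved with these classes. Measured on the log2 scale from the mean of the 16 libraries, the median deviation of the X1-high class was -0.22 in *unc22*(RNAi) library a and 0.17 in library d, and between -0.20 and -0.02 in the *set1*(RNAi) libraries. For the whole-worm-high class it was 0.10 in library a and -0.27 in library d, and between 0.01 and 0.15 in the *set1*(RNAi) libraries. The groups therefore overlapped on both measures. The X1-high class held 53.1 to 54.5% of the listed RPKM in *set1*(RNAi) libraries and 50.7 to 54.2% in *unc22*(RNAi) libraries. Among the controls, the number of transcripts at 1 RPKM or more fell in the order of the whole-worm-high deviation, from 13630 in library a to 12506 in library d. Of the *set1*(RNAi) libraries, library c was highest on both, at 14089 transcripts and 0.15. The part of sort composition in the shares called and in the number of transcripts detected was not tested.

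A group of 468 tested transcripts was not listed in both of the *mll1/2* tables and had no ratio. These were short, with a median of 433 bases, and low, with a median of 1.75 RPKM. Of these, 33.8% were called higher and 12.0% lower, against 18% and 22.2% over all tested. They had a median change of 0.36 at day 9 against 0.08 at day 6. Transcripts this low could pass the filter through the libraries in which they were high. These shares and medians are thus a description and carry no test.

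**Figure D4:**
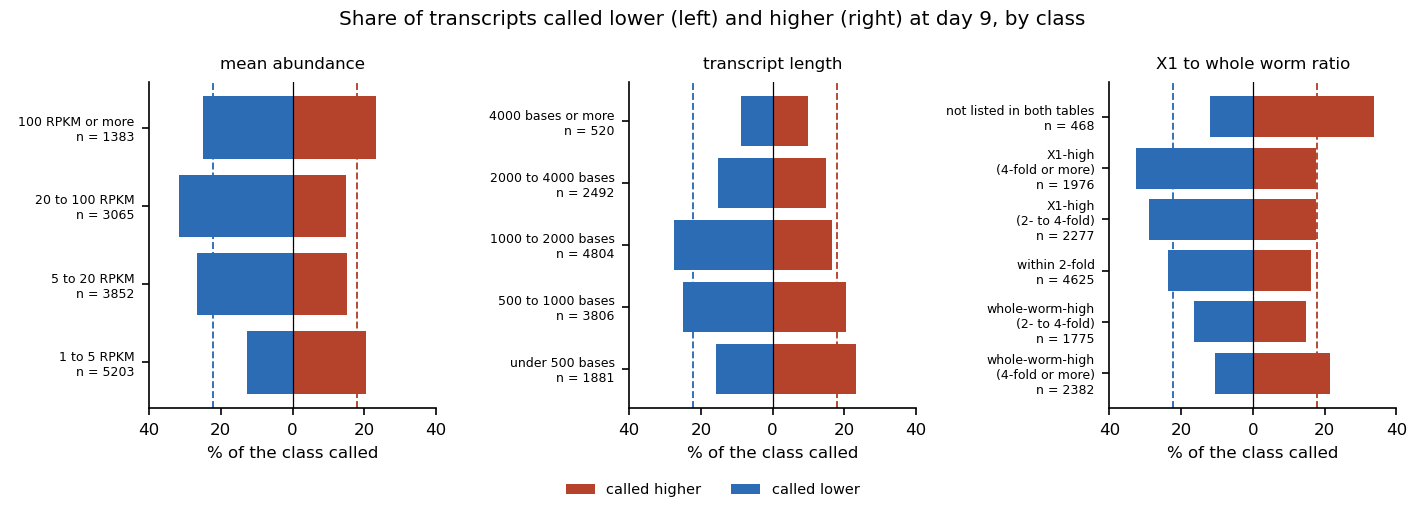
Share of transcripts called lower (blue, to the left) and higher (red, to the right) at day 9 in classes of mean abundance, length and X1 to whole worm ratio, with the number of transcripts in each class. Dashed lines mark the shares over all 13503 tested, 22.2% lower and 18% higher. Calls to the lower side shrink from 32.5% in the X1-high class to 10.4% in the whole-worm-high class.

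The day 9 response was set beside that of X1 cells at day 6, which have their own libraries and controls. At day 6, limma called 2676 transcripts (19.8%), 896 higher (6.64%) and 1780 lower (13.2%). Of the transcripts called higher at day 9, 675 (27.8%) were called higher at day 6 and 4 were called lower, and their median change at day 6 was 0.26. Of those called lower at day 9, 1438 (48.1%) were called lower at day 6 and 4 were called higher, with a median of -0.35. Read the other way, 75.3% of the day 6 rises and 80.8% of the day 6 falls were called again in the same direction at day 9. The shares called higher and lower at day 9 over all tested were 18% and 22.2%. There were 1750 rises and 1550 falls called at day 9 and not at day 6, and 555 calls at day 6 that were not called at day 9.

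Larger changes at day 9 were more often called at day 6. For falls, the share called at day 6 was 27.2% among changes under 1.5-fold, 53.5% at 1.5- to 2-fold, 80.8% at 2- to 4-fold and 96.4% (53 of 55) at 4-fold or more. For rises it was 16%, 24.4%, 46.4% and 68.7% (46 of 67). Transcripts called at day 6 also moved on. The median of the day 6 rises was 0.63 at day 6 and 0.75 at day 9, with 541 (60.4%) larger at day 9, and the median of the day 6 falls was -0.57 and -0.73, with 1109 (62.3%) larger.

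Whether the effect itself differed between the days was tested as an interaction. It did in 783 transcripts (5.8%), 312 of them (2.31%) more positive and 471 (3.49%) more negative at day 9, and 744 of the 783 were called at day 9. The balance turned with median scaling, which gave 266 more positive and 222 more negative, and quantile normalisation gave 774 and 764. Choosing transcripts by a call at day 9 and by a difference between the days nearly fixes that the change is larger at day 9, so the following values are a description. Among transcripts called higher at day 9, 283 differed, and their medians were 0.90 at day 9 and 0.04 at day 6. Among those called lower, 461 differed, and their medians were -0.96 and -0.29. Of the 283, 49 were also called at day 6, and of the 461, 225 were. Of the *set1*(RNAi) libraries, leaving out library b of day 9 took the count from 783 to 448, leaving out library a of day 9 took it to 477, and leaving out library c of day 6 took it to 500. Between the *unc22*(RNAi) groups of the 2 days limma called 20 transcripts (0.148%), all lower at day 9, and 12 of them were among the day 9 calls. Of all tested, 40.1% were day 9 calls, and the *unc22*(RNAi) day 9 libraries enter both comparisons, which favours such an overlap. The count of 20 was 119 with quantile normalisation, 6 with median scaling and 6 without *unc22*(RNAi) day 9 libraries a and d.

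In whole worms after 9 days of *set1*(RNAi), 11973 of the transcripts were also tested, and limma called 18.9% of them higher and 30.3% lower. Of the X1 rises tested there, 809 of 1946 (41.6%) were called higher, which was 35.8% of the whole worm rises, and 159 were called lower. Of the X1 falls, 1715 of 2728 (62.9%) were called lower, which was 47.2% of the whole worm falls, and 110 were called higher. For scale, the X1 rises were 1946 and the X1 falls 2728 of all 11973 tested in both. The medians of these rises and falls were 0.13 and -0.29 in whole worms, against 0.59 and -0.62 in X1 cells for the same transcripts. They were chosen by their calls in X1 cells, which by itself favours larger values there. The share called in whole worms reached 65.0% (26 of 40) among rises and 80% (32 of 40) among falls of at least 4-fold in X1 cells. The tables may have been normalised separately, so the sizes were not tested against each other.

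In X1 cells after 9 days of *mll1/2*(RNAi), 12231 of the transcripts were also tested. There limma called 0.621% higher and 3.39% lower. Of the *set1* rises, 24 of 2057 (1.17%) were called higher and 24 were called lower. Of the *set1* falls, 207 of 2910 (7.11%) were called lower and 26 were called higher. These 207 were 49.9% of the 415 transcripts lowered by *mll1/2*(RNAi) among those tested in both, while the *set1* falls were 2910 of all 12231. Most transcripts of the *set1* response were not called after *mll1/2*(RNAi) at the same day, which held for all transcripts tested there. The shares called in the same direction were 1.17% of the rises and 7.11% of the falls, against 0.621% and 3.39% over all. The median changes were 0.09 for the rises and 0.03 for the falls, against 0.04 over all. Among *set1* falls of at least 4-fold, 6 of 52 (11.5%) were called lower.

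**Figure D5:**
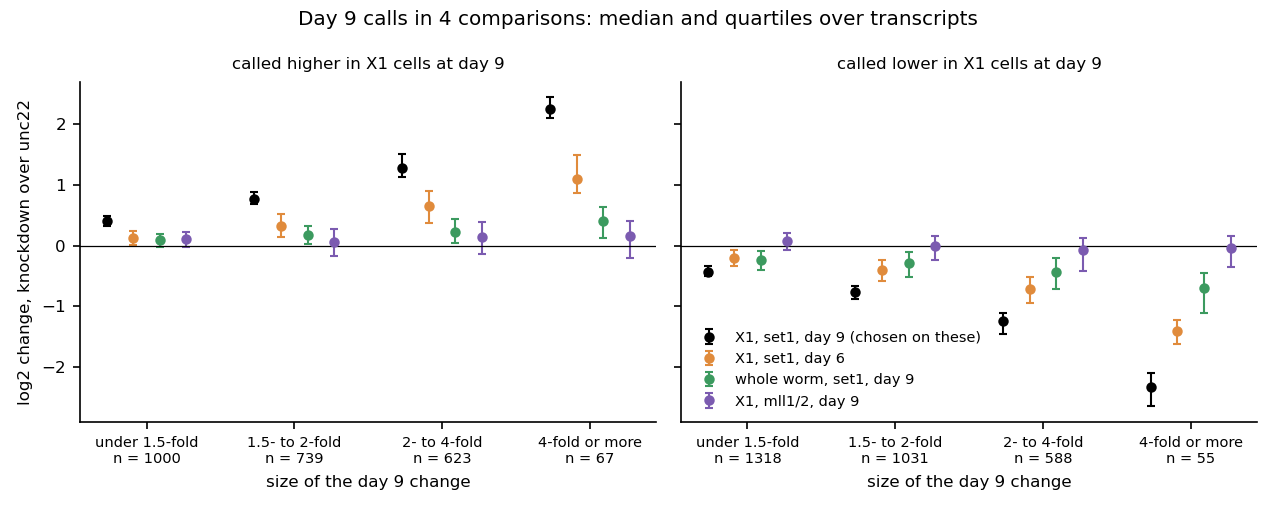
Median log2 change, with quartiles over transcripts as bars, of the transcripts called higher (left) and lower (right) in X1 cells at day 9, in 4 classes of the size of that change. Black shows X1 cells at day 9, on which the transcripts were chosen, orange X1 cells at day 6, green whole worms at day 9 and purple X1 cells at day 9 of *mll1/2*(RNAi). For falls of at least 4-fold the medians are -2.32, -1.40, -0.69 and -0.04 in that order.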

How the data were processed

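PolyA RNA of *set1*(RNAi) and *unc22*(RNAi) X1 cells at day 9 was compared, 4 libraries each. The authors deposited RPKM values in 4 tables, 1 per experiment and tissue. CASAVA 1.8.2, Bowtie and edgeR are named in the submitters' processing notes. The sources used here do not give their roles, the transcript set or the counting. All columns were used by group. Names of the *set1* X1 columns give the RNAi, the day and a number, but as written they are the titles of whole worm samples.

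Group means of log2(RPKM + 0.5) over the 16 *set1* X1 libraries were modelled with limma 3.58.1 in R 4.3.3 (eBayes with trend), within each table, for transcripts with a mean of at least 1 RPKM. Tests were two-sided and adjusted by Benjamini-Hochberg. The 0.5 RPKM added understates the change of low transcripts. Whole reads were recovered from the RPKM steps (100% of values within 0.01 read of a whole number) and gave 12.62 to 18.28 M per library. Counts of each replicate pair differed by more than sampling noise (chi-square per degree of freedom 3.22 to 47.3).

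The named transcripts were those with the largest rise and fall among calls whose groups do not overlap, and again among those with a mean of at least 20 RPKM. The X1 to whole worm ratio was log2 of the mean RPKM + 0.5 of each tissue, centred on its median. Alternatives were pseudocounts of 0.1 and 1, no filter, a filter of 5 RPKM, median scaling, quantile normalisation, removal of the trend on length, library weights, voom on the recovered reads with the authors' implied library size, day 9 libraries alone, and leaving out each library. Chosen after seeing the data were the fits without *unc22*(RNAi) libraries a and d, the other detection thresholds, and the other settings for the day 6, whole worm and *mll1/2* values. The fits were tried on simulated reads with few transcripts changed and noise independent between transcripts. These data differ in both respects, so that trial does not measure the errors of the calls here. The comparison and the classes were chosen with earlier results of these data known. Python 3.11.15, pandas 2.3.3, numpy 2.4.6 and scipy 1.17.1 were used.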

Additional observations from a re-analysis of the deposited data

Results flagged for a closer look

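In 20 groups of 4 libraries tested for outliers, 2 held a library far from the others, both for a named transcript. Chance flags about 1 group in 20. SMED30017343 had 1.24 RPKM (12 reads) in *unc22*(RNAi) day 9 library d and 0 to 0.113 RPKM in the other control libraries of that day. Without that library its effect differed between the days by 1.67 on the log2 scale, past the threshold, against 1.26 (limma adjusted p = 0.101) with it. SMED30027305 had 2.84 RPKM in *set1*(RNAi) day 6 library d and 5.8 to 6.4 RPKM in the other libraries of that group.

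The effect of *set1*(RNAi) in X1 cells differed between day 9 and day 6 in 783 transcripts by the limma interaction test. Named among them were SMED30013183 (a log2 difference of 1.60, adjusted p = 2.9e-06), SMED30027305 (-1.23, adjusted p = 0.0228) and SMED30007270 (-1.37, adjusted p = 5.46e-05). The named transcripts were chosen by the size of their day 9 change, which favours a larger change at day 9 than at day 6.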

How the results depend on the processing

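No paired analysis was possible because the columns of the *set1* X1 table cannot be tied to single X1 samples or to replicate numbers. The count of day 9 calls ranged from 4755 to 5608 when a library was left out, and the 2-fold count from 1301 to 1402. Day 9 libraries alone gave 4698 calls, and the length trend removed gave 6004. The 2-fold count moved more with the pseudocount, to 1661 with 0.1 and 967 with 1, and was 1712 with voom. Falls outnumbered rises among the 2-fold calls with a pseudocount of 1 (465 higher, 502 lower) and with quantile normalisation (600 higher, 658 lower). With a filter of 5 RPKM, 1408 transcripts were called higher, and 607 changed at least 2-fold (183 higher, 424 lower), because fewer transcripts were tested. The count of 783 transcripts whose effect differed between days was 488 with median scaling (222 lower at day 9), 1538 with quantile normalisation (774 higher, 764 lower), 1319 with the length trend removed (535, 784) and 1517 with weighted libraries (648, 869). It ranged from 448 to 953 without 1 library, with 145 to 425 higher and 301 to 652 lower. The 20 calls between the controls of the 2 days were 6 with median scaling, 119 with quantile normalisation and 6 without *unc22*(RNAi) day 9 libraries a and d. The cause was not tested.

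Class medians are given here less the median of all transcripts. With quantile normalisation they turned at 1 to 5 RPKM (-0.03), 5 to 20 RPKM (0.01) and 20 to 100 RPKM (0.02), and moved to 0.06 in the whole-worm-high class, 0.00 within 2-fold, 0.07 under 500 bases and -0.03 at 1000 to 2000 bases. Without 1 library the ranges were -0.02 to 0.10 at 2- to 4-fold higher in whole worms, -0.04 to -0.02 within 2-fold, -0.12 to -0.01 at 2- to 4-fold higher in X1 cells and -0.19 to -0.02 in the X1-high class, where 0.10, -0.12 and -0.19 were the values without *unc22*(RNAi) library a. The day 6 median of the day 9 rises was 0.29 and 0.24 with pseudocounts of 0.1 and 1, 0.28 with median scaling and 0.27 with quantile normalisation, and that of the falls -0.30 with quantile normalisation. In whole worms the median of the rises was 0.20 with median scaling and 0.16 with quantile normalisation, and that of the falls -0.22 with median scaling. The difference in transcripts detected was 414 at 2 RPKM and turned to -15 at 5 RPKM. For SMED30017343 the difference between days passed the threshold with a pseudocount of 1 (1.18), weighted libraries (1.55), without library d (1.67) and without a and d (1.69), and for SMED30027305 it missed it with voom (-1.45) and without *set1*(RNAi) library b (-1.18).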
